A study of Mus musculus with 15 samples.

Results

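The genes described here are the secreted Wnt ligands, their receptors, and the extracellular and feedback modulators of Wnt signalling, in the embryonic mouse pancreas. They were chosen by name alone: every row of the count table whose symbol is a Wnt, Fzd, Sfrp, Dkk or Rspo gene, together with Lrp5, Lrp6, Ror1, Ror2, Ryk, Frzb, Wif1, Axin2, Lef1, Tcf7, Lgr4, Lgr5, Rnf43, Znrf3 and Notum. This gave 53 of the 25292 genes in the table, all protein-coding. They comprised 17 ligands, 10 frizzled receptors, 5 coreceptors or alternative receptors, 10 secreted antagonists, 8 genes of the R-spondin module and 3 nuclear factor or feedback genes.

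Poly(A) RNA was sequenced from 15 libraries of strain C57/Bl6J in 5 groups of 3. The groups named wt and S1pr2 null were pancreata taken at 14.5 dpc (days post coitum), wild type or null for S1pr2, a receptor for the secreted lipid sphingosine-1-phosphate. The other 3 groups were explants of that stage kept for 2 days at an air-liquid interface. By the methods of the study they were wild-type dorsal buds in serum-free medium with N2 supplement. Control explants received no agent, or the solvent where appropriate, JTE explants received 15 uM JTE013, an antagonist of S1pr2, and JTE with CTGF explants received JTE013 at that dose with 50 ng/ml CTGF, a secreted matricellular protein. Each library was a pool of up to 3 organs or explants of 1 genotype or treatment, and the methods call the 3 pools of a group independent samples.

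Wnt proteins are lipid-modified ligands that bind frizzled receptors. With the coreceptors Lrp5 and Lrp6 they stabilise beta-catenin, which enters the nucleus and acts with Tcf and Lef factors, while binding to Ror or Ryk receptors leads to responses that do not need beta-catenin. Sfrp proteins, Frzb and Wif1 bind the ligands outside the cell, Dkk proteins act mainly on the coreceptors, and Notum removes the lipid. R-spondins bind Lgr receptors and keep the ubiquitin ligases Rnf43 and Znrf3 from clearing frizzled receptors. Axin2, Lef1, Tcf7, Lgr5, Notum, Rnf43 and Znrf3 are widely used as readouts because beta-catenin can induce them. In the pancreas, mesenchymal Wnt ligands and epithelial beta-catenin are known for their roles in progenitor growth and in the formation of acinar cells.

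The libraries held between 11402804 and 13828737 counted reads. S1pr2 itself had a higher level in the libraries labelled S1pr2 null (1358 ± 97.6 normalised counts, SD, n = 3) than in wt (766 ± 5.87). The null allele carries a Neo cassette in exon 1 by the methods, and a count per gene does not show which exon its reads came from, so this count does not check the labels. The library JTE 3 stood apart from JTE 1 and JTE 2: the chi-square per gene between it and each of them was 17.2 and 23.2, against 2.34 to 10.2 for every other pair of replicates. Pancreatic identity was clear in every group, with Pdx1, the pancreatic progenitor factor, at 607 reads or more and Ctrb1, a digestive enzyme precursor, at 8119 reads or more in each library.

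The stretches just upstream of 4 transcription starts are shown because Wnt10b, Wnt6 and Rspo4 had their highest levels in the same 3 libraries, the control explants, and because Axin2 is the most used readout. Each is the last 100 bases before the start, 5′ to 3′, with CpG dinucleotides in capitals. The sequences are from RefSeq on build GRCm38.p6, which is mm10.
Axin2, plus strand, chr11:108920249-108920348: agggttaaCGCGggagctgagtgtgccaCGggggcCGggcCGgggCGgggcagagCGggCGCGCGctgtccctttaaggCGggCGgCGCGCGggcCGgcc
Rspo4, plus strand, chr2:151842827-151842926: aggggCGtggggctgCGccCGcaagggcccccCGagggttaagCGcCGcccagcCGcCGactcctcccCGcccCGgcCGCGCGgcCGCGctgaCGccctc
Wnt10b, minus strand, chr15:98778151-98778250: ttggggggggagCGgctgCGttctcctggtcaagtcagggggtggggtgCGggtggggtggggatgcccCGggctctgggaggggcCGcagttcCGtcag
Wnt6, plus strand, chr1:74771792-74771891: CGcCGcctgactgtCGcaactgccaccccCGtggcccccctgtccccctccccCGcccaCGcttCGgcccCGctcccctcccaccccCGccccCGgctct

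These 4 stretches were rich in CpG. Axin2 and Rspo4 each held 16 CpG, Wnt6 held 10 and Wnt10b held 6, against a median of 3 over 32851 promoter windows. Their GC content was 80% for Axin2 and Wnt6, 83% for Rspo4 and 73% for Wnt10b, against a median of 55%.

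Of the 53 genes, 35 had a promoter window, running from 250 bases before to 50 bases after the start, with 43 windows in all. The TCF/LEF words CTTTGAT and CTTTGAA, searched on both strands, were found in 6.98% of these windows and in 8.65% of all windows. They lay before RefSeq starts of Dkk1, Wnt11 and Wnt5b. The stretches around them are given with the word in capitals, reading on the strand of the gene, and those of Dkk1 and Wnt5b lie within the span of the gene, before a start inside it.
Dkk1, minus strand, chr19:30549592-30549628: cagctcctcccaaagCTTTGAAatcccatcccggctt
Wnt11, plus strand, chr7:98835046-98835082: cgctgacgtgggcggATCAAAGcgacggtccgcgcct
Wnt5b, minus strand, chr6:119449436-119449472: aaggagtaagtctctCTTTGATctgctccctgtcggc

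The word of TEAD factors, CATTCC, was in 4.65% of the member windows against 14.7% of all windows, and that of AP-1, TGANTCA, in 4.65% against 7.81%. None of the 3 kinds of word was in the printed 100 bases of Axin2, Rspo4, Wnt10b or Wnt6.

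Levels were compared between genes per length, in RPKM, the reads per kilobase of exon scaled to the size of the library. In wt pancreata the leading ligand genes were Wnt7b (11.7 ± 1.4 RPKM, SD, n = 3), an epithelial ligand in many organs, and Wnt2b (11.6 ± 0.21), a mesenchymal ligand, which did not differ beyond their spread. Wnt5a (6.34 ± 0.49) and Wnt5b (6.06 ± 1.0), ligands mostly of beta-catenin-independent signalling, came next and also lay within their spread, followed by Wnt4 (5.01 ± 0.23), Wnt9a (3.54 ± 0.072) and Wnt11 (1.58 ± 0.14). The other 10 ligand genes were each at 0.322 RPKM or lower. In the libraries labelled S1pr2 null Wnt7b (17 ± 1.8) led, Wnt5a (13.1 ± 0.34) and Wnt2b (12.8 ± 1.6) followed within their spread, and Wnt4 was 7th at 2.61 ± 0.15.

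The order of the ligands was another in the explants. Wnt4 led in control (12.2 ± 0.70 RPKM), JTE (14.8 ± 2.2) and JTE with CTGF (15.1 ± 2.7), followed by Wnt7b (7.06 ± 0.50, 12.4 ± 1.2 and 11.3 ± 0.14). Below them in control lay Wnt2b (3.56 ± 0.67), Wnt9a (3.25 ± 0.26), Wnt5a (3.20 ± 0.62), Wnt5b (2.96 ± 0.28) and Wnt10b (2.62 ± 0.23), whose neighbours did not differ beyond their spread. Wnt6 (1.96 ± 0.45) and Wnt10a (0.703 ± 0.091) were the other ligands with a far higher level in control than elsewhere, and the highest level of these 3 in any other group was 0.467 RPKM.

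Among the receptors Fzd2 was the most abundant frizzled gene in every group, between 24.0 ± 1.6 RPKM in JTE with CTGF and 55.7 ± 2.1 in S1pr2 null. Fzd7 and Fzd1 held the next places in every group, and Fzd9 and Fzd10 the last. Ryk, Lrp5, Lrp6 and Ror2 were all between 11.7 and 33.1 RPKM in each group. Ror1, which with Ror2 binds Wnt5a, was lower, between 4.36 ± 0.059 and 11.1 ± 0.61.

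The secreted antagonists had a summed level of 108 ± 9.98 RPKM in wt, within their spread of the frizzled receptors (98.9 ± 1.23), of 170.0 ± 6.10 in S1pr2 null (frizzled receptors 124 ± 2.47), and a summed level of 48.8 ± 4.54, 48.7 ± 5.14 and 43.6 ± 0.429 in control, JTE and JTE with CTGF. Sfrp1 led them in every group, at 57.4 ± 7.4 RPKM in wt, 116 ± 11 in S1pr2 null and 18.1 to 23.0 in the explant groups. In the R-spondin module Lgr4 was the leading gene in every group, between 14.3 ± 0.77 and 18.3 ± 2.2 RPKM, while Lgr5, its relative in adult stem cells, stayed at or below 0.71 ± 0.13.

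**Figure D1:**
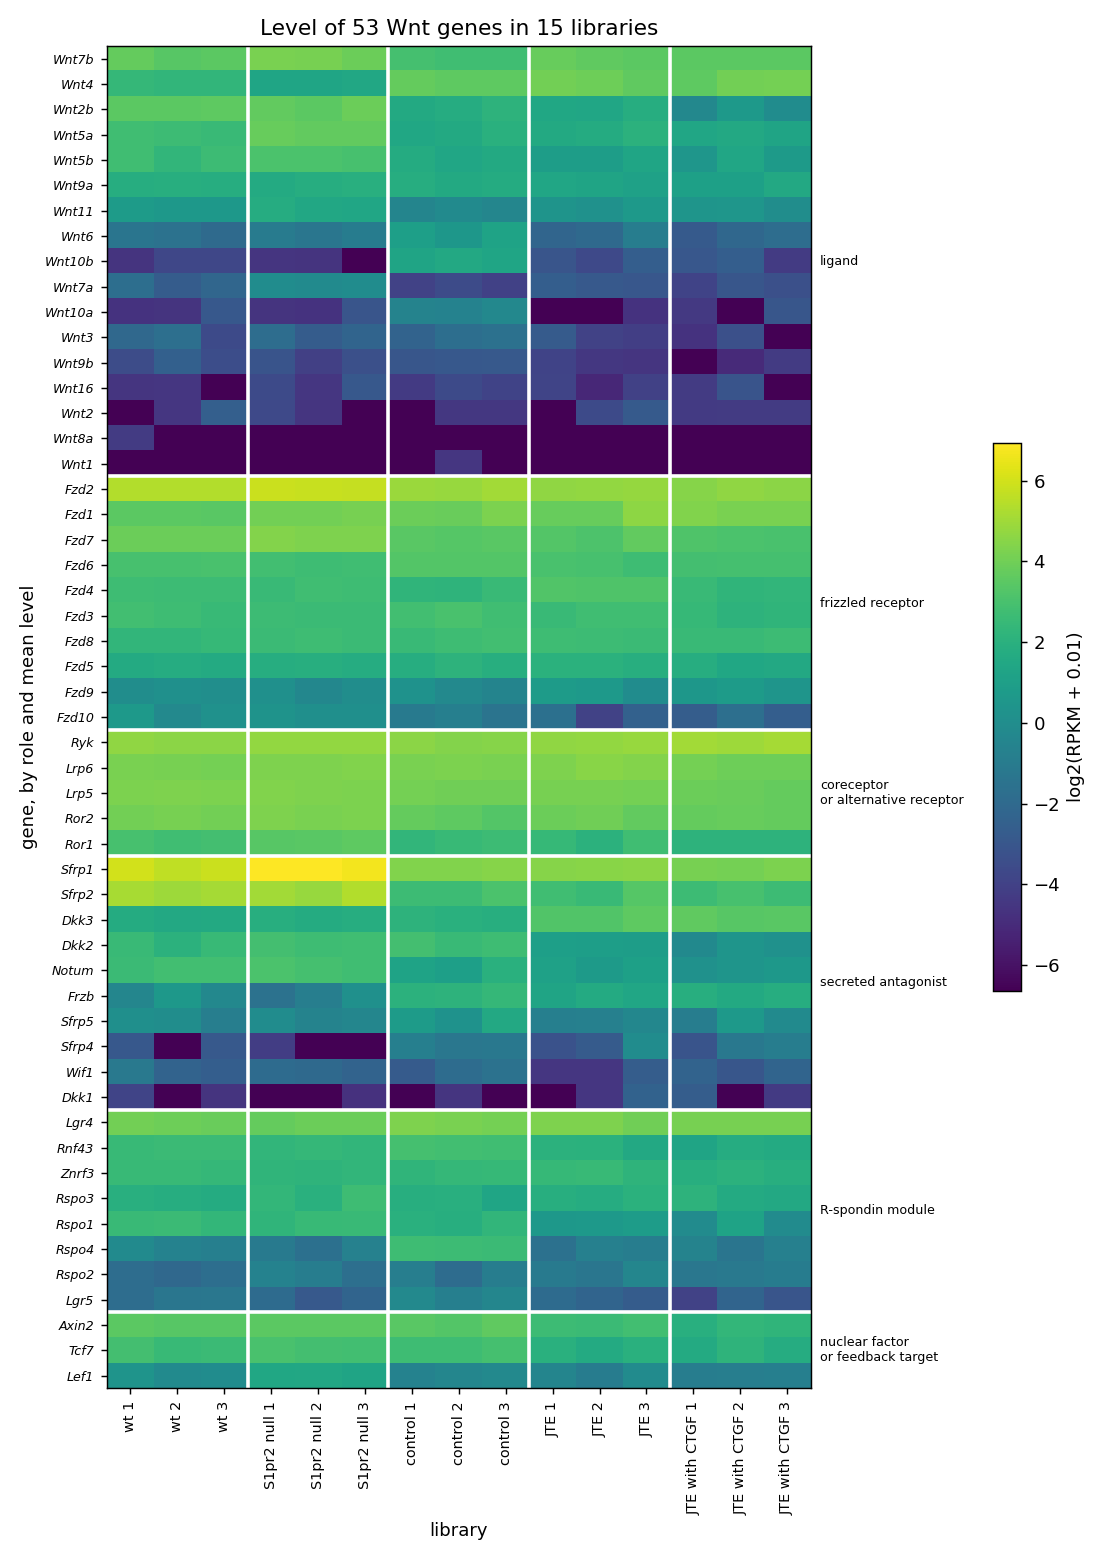
Heat map of the level of the 53 Wnt genes (rows, by role and mean level) in the 15 libraries (columns, by group), as log2(RPKM + 0.01). Sfrp1 and Fzd2 are the brightest rows, and Wnt10a, Wnt10b, Wnt6 and Rspo4 are brightest in the 3 control libraries.

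Of the 53 genes 46 passed the filter on low counts and were tested. The 7 that did not were Wnt1, Wnt8a, Wnt2, Wnt16, Wnt9b, Dkk1 and Wif1, whose highest library counts were 1, 1, 5, 8, 10, 6 and 15. Wnt10a and Wnt10b passed it through the 3 control libraries alone, Wnt7a through the 3 libraries labelled S1pr2 null with wt 1, and Sfrp4 through 1 library of each explant group. A difference of the group that carried them was a condition of being tested, so the values of these 4 genes are given as a description without a p, and they stand in the counts of changed genes on that condition. Wnt3 passed the filter in 4 libraries, of wt, S1pr2 null and control, and in no JTE or JTE with CTGF library. In what follows a gene is said to have risen, fallen or changed where the adjusted p of the test over all 16245 tested genes was below 0.05. Statements that groups did not overlap describe the values of the libraries. The share of all tested genes that separated in this way was not measured. RNA from whole organs or explants cannot tell fewer cells of a type from less RNA per cell.

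The libraries labelled S1pr2 null were compared with wt to ask how loss of the receptor changed the fresh pancreas. Several ligands, frizzled receptors and Sfrp1 were higher, led by Lef1, Wnt5a and Sfrp1, and Wnt4 and Lgr5 were lower. In all 15 of the 46 tested genes rose and 3 fell, or 39.1%, against 25.8% of all tested genes (12.6% rose and 13.3% fell). The median log2 fold change was 0.13 over the 46 and -0.01 over all tested genes.

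Wnt7a, a ligand known from skin, limb and uterus, had 39, 38 and 46 reads in the libraries labelled S1pr2 null and 13, 6 and 9 in wt, and the groups did not overlap. Its fitted log2 fold change was 2.09, in a gene that entered the tests through this group. Wnt5a, a mesenchymal ligand of Ror receptors, had 1324, 1271 and 1264 normalised counts against 675, 611 and 581, a log2 fold change of 1.05 (SE 0.11, adjusted p = 4.86e-06).

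Wnt11, a relative of Wnt5a in function, stood at 153, 128 and 119 against 79.2, 69 and 67.6 normalised counts (log2 fold change 0.89, SE 0.15, adjusted p = 0.000441). Wnt7b and Wnt5b rose by less, with log2 fold changes of 0.54 (SE 0.09) and 0.45 (SE 0.15). The ligand that fell was Wnt4, known for its roles in kidney and gonad, which was at 132, 134 and 146 in S1pr2 null and at 277, 259.6 and 254 in wt (log2 fold change -0.94, SE 0.14, adjusted p = 0.000165). Every library labelled S1pr2 null was below every wt library for Wnt4, and above it for Wnt5a, Wnt11, Wnt7b and Wnt5b.

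Of the 15 receptor and coreceptor genes 6 rose and 1 fell. Ror1 had 776, 785 and 856 normalised counts in S1pr2 null against 569, 497 and 533 in wt (log2 fold change 0.60, SE 0.12, adjusted p = 0.00116). Fzd1, Fzd7, Fzd2 and Fzd8 rose with log2 fold changes of 0.58, 0.44, 0.43 and 0.31, and the coreceptor Lrp6 with 0.17. Fzd6, a receptor of planar polarity, fell by 0.21 on the log2 scale. Fzd3, Fzd4, Fzd5, Fzd9, Fzd10, Lrp5, Ror2 and Ryk did not pass the test, with log2 fold changes between -0.12 and 0.19.

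Of the antagonists Sfrp1, which binds Wnt ligands, stood at 6679, 6715 and 5668 normalised counts in S1pr2 null against 3539.6, 2732 and 3177 in wt. This was the largest difference in absolute level among the 53 genes (log2 fold change 1.01, SE 0.08, adjusted p = 2.61e-07). Dkk2 rose by less (0.40, SE 0.12), and the other 6 tested antagonists did not pass, Sfrp2 among them at a log2 fold change of 0.05 (SE 0.14).

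The readouts did not move as 1 group. Lef1, a nuclear partner of beta-catenin, was at 295, 301 and 259 normalised counts in S1pr2 null and at 143, 97.7 and 106 in wt (log2 fold change 1.30, SE 0.16, adjusted p = 2.42e-05), with no overlap. Lgr5 was lower, at 33.4, 16.6 and 25.2 against 36.0, 50.8 and 52.6 (log2 fold change -0.89, SE 0.31, adjusted p = 0.0419). Axin2 did not pass, at 801, 777 and 793 against 781, 733 and 736 (log2 fold change 0.08, SE 0.09, adjusted p = 0.572).

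Tcf7, Notum, Znrf3 and Rnf43 did not pass either, at log2 fold changes of 0.23, 0.19, -0.22 and -0.25 with adjusted p of 0.196, 0.42, 0.0611 and 0.11. Of the R-spondins Rspo3, a ligand of Lgr receptors, rose from 106 ± 7.08 to 155 ± 37.8 normalised counts (log2 fold change 0.55, SE 0.19). Rspo1, Rspo2 and Rspo4 did not pass.

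Some of these calls were near the threshold and were lost when 1 library was left out. Leaving out wt 2 left 9 genes higher, and the number lower was 1 without wt 2, without wt 3 or without S1pr2 null 2, and 5 without JTE 3, which enters the estimate of the spread. Fzd1 lost its call without wt 2, wt 3 or S1pr2 null 3 (adjusted p 0.0514 to 0.0611). Rspo3 lost it without any fresh library but S1pr2 null 2 (0.0572 to 0.237), Wnt5b without any but wt 1 (0.0625 to 0.171) and Fzd6 without any but S1pr2 null 1 (0.0606 to 0.121), with DESeq2 (0.0749) and with no filter on low counts (0.0676). Lgr5 lost it without wt 2, wt 3, S1pr2 null 2, S1pr2 null 3 or JTE with CTGF 3 (0.0506 to 0.173). Without JTE 3 Rnf43 (0.0314) and Znrf3 (0.0247) passed as lower.

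Of the 76 other genes of the pathway in the table, which act in secretion, inside the cell or in planar polarity or are known targets of beta-catenin, 73 were tested, and 29 rose and 5 fell (46.6%). Their median log2 fold change was 0.14. The largest rises were of Gpc6, a cell-surface proteoglycan (0.91, SE 0.10), Daam2, a formin that binds Dishevelled (0.82, SE 0.10), Shisa2 (0.78, SE 0.11) and Tbx3, a transcription factor (0.76, SE 0.09). The largest falls were of Celsr3 (-0.80, SE 0.14), Nfatc1 (-0.80, SE 0.11), Cer1 (-0.76, SE 0.24) and Daam1 (-0.24, SE 0.07). The number lower was 2 without wt 2, and 3 without wt 3 or without any 1 library labelled S1pr2 null.

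Markers of other cells moved in the same comparison. Of 12 markers of epithelium 11 fell, with a summed level of 812 to 862 RPKM in S1pr2 null and 1089 to 1163 in wt. Of 11 tested acinar markers 9 fell (1523 to 1658 against 4721 to 8643 RPKM) and of 12 endocrine markers 11 fell (712 to 809 against 1538 to 1839 RPKM). Within the acinar sums Ctrb1 had means of 718 RPKM in S1pr2 null and 4350 in wt. Of 16 mesenchymal markers 9 rose and 5 fell, and their summed level was 1510 to 1741 RPKM against 1764 to 1779. No marker of these lists was at 0 in a whole group, and the part of these shifts in the Wnt genes was not tested.

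**Figure D2:**
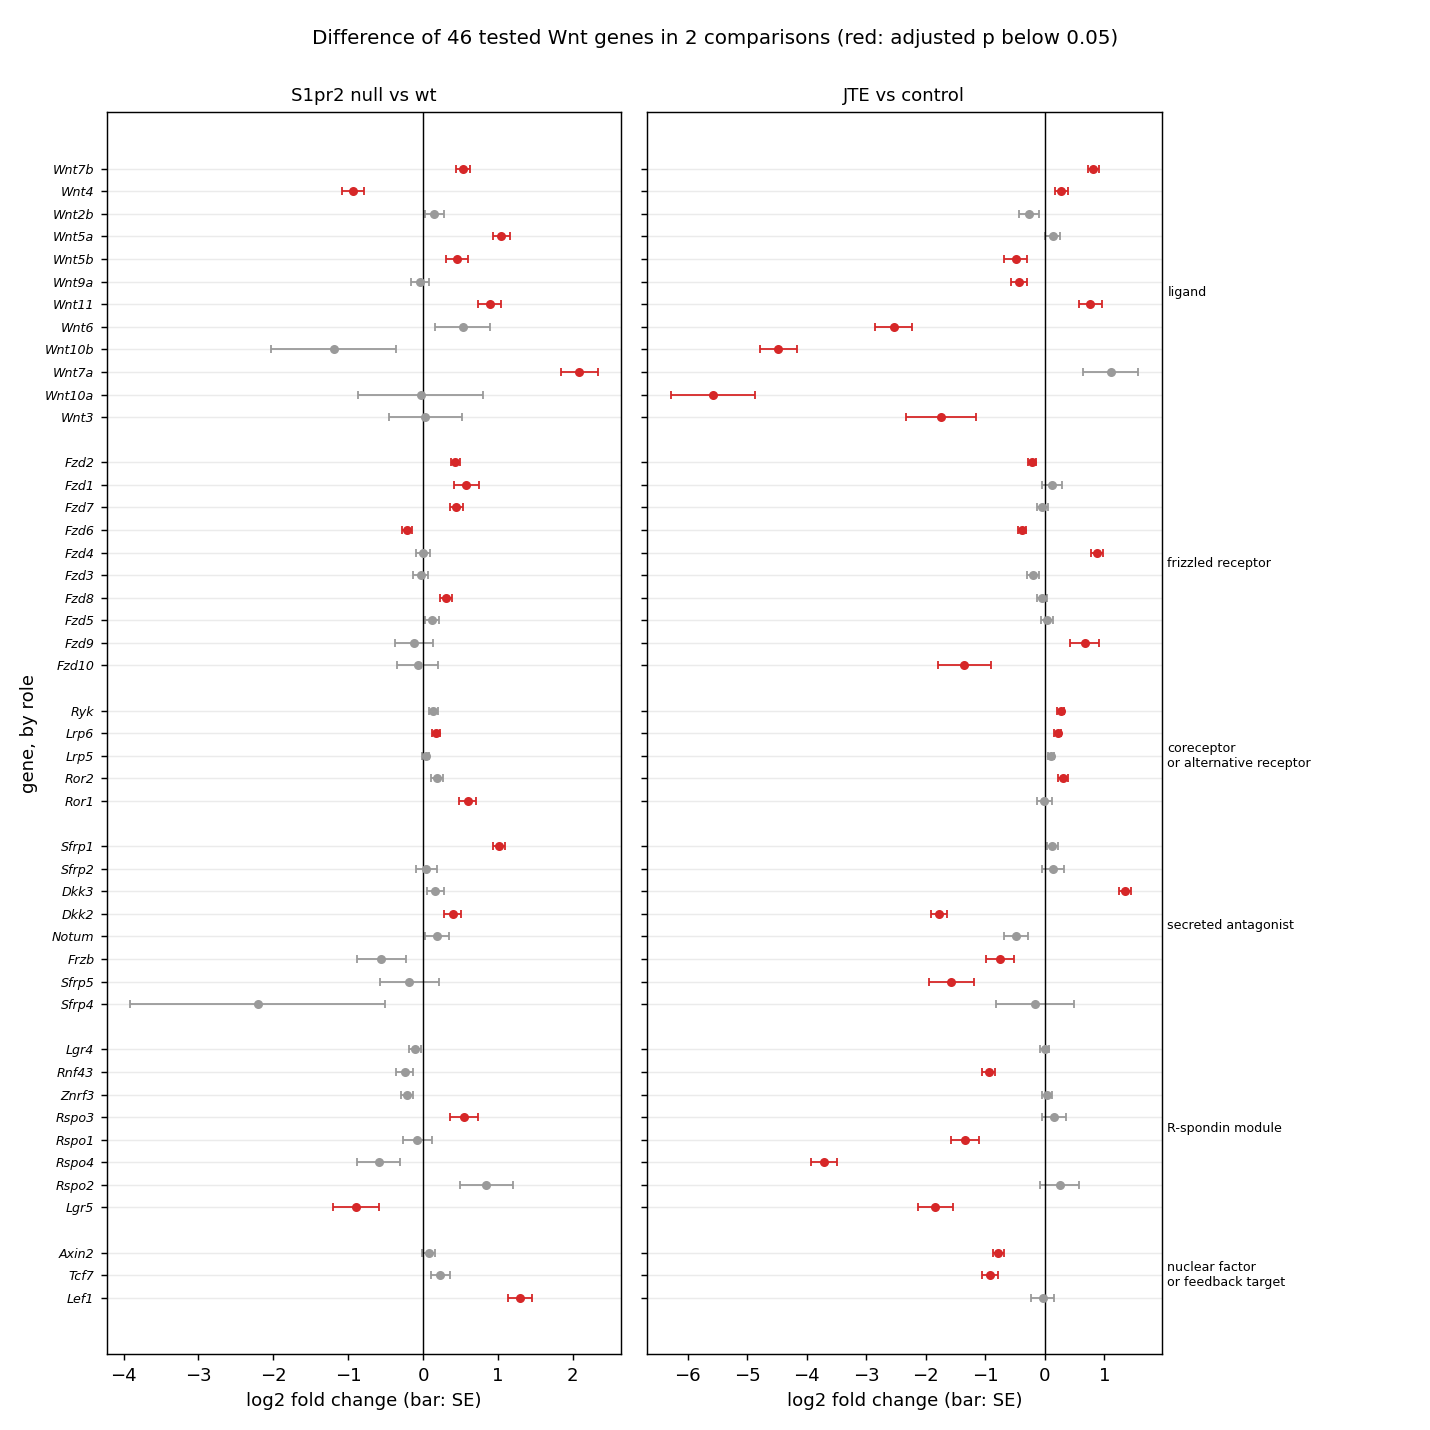
Log2 fold change (x axis, with SE as bars) of the 46 tested Wnt genes (y axis, by role) in S1pr2 null against wt (left) and JTE against control (right), red where the adjusted p was below 0.05. Wnt7a, which entered the tests through S1pr2 null, Lef1, Wnt5a and Sfrp1 lie farthest right on the left side. Wnt10a, Wnt10b, Rspo4 and Wnt6 lie farthest left on the right side. Of these, Wnt10a and Wnt10b entered the tests through the control libraries alone, so their colour is no evidence of a change.

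Control explants were compared with wt pancreata to ask what 2 days of culture changed. Culture, the later age and the dorsal bud as against the whole organ cannot be told apart here. Wnt10b, Wnt10a and Wnt6, which had few reads in the fresh organ, were higher in the control explants, together with Rspo4, while Sfrp2, Sfrp1, Wnt2b and Wnt5a were lower. Of the 46 tested genes 17 rose and 17 fell, or 73.9%, against 57.8% of all tested genes (28.5% rose and 29.3% fell). The median was -0.03 over the 46 and -0.02 over all tested genes.

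Wnt10b, a ligand known from fat and mammary tissue, had 67, 84 and 72 reads in the control libraries and 1, 2 and 2 in wt. The ratio of reads per scaled library was 49.6, with an exact 95% interval of 20.9 to 154 that covers counting error only. Wnt10a, its close relative, had 19, 20 and 24 reads against 1, 1 and 4, a ratio of 11.7 (5.07 to 33.0). Every control library was above every wt library in both genes, which their filter favoured.

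Wnt6 had 50, 38 and 59 reads in control and 11, 9 and 7 in wt (log2 fold change 2.58, SE 0.31, adjusted p = 1.67e-06). Wnt6 lies beside Wnt10a on chromosome 1 of mm10, at 74771892 to 74785319 and 74791516 to 74804179, and Wnt10b beside Wnt1 on chromosome 15, at 98771753 to 98778150 and 98789857 to 98793837. Wnt1 had 1 read in all 15 libraries.

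Rspo4, an R-spondin whose loss affects nails, had 196, 189 and 181 normalised counts in control and 27.0, 19.2 and 16.9 in wt (log2 fold change 3.16, SE 0.21, adjusted p = 1.67e-09). Wnt4 rose as well, to 684, 628 and 613 from 277, 259.6 and 254 (log2 fold change 1.28, SE 0.12, adjusted p = 1.42e-07). In each case all control libraries were above all wt libraries. The other R-spondin genes did not pass the test, and Lgr5, Rnf43 and Lgr4 rose with log2 fold changes of 0.98, 0.28 and 0.25.

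The antagonists split by gene. Frzb, known from cartilage, was at 172, 181 and 216 normalised counts against 29.7, 60.3 and 32.8 (log2 fold change 2.21, SE 0.26), and Sfrp5, Dkk3 and Dkk2 rose too. Sfrp2 fell to 171, 169 and 228 from 954, 835 and 915 (log2 fold change -2.25, SE 0.17, adjusted p = 6.25e-09), Sfrp1 fell to 1123, 1125 and 1212 (-1.45, SE 0.08), and Notum to 71.1, 60.3 and 118 from 184, 211 and 216 (-1.29, SE 0.18). Sfrp4 had 9 to 12 reads in control and 0 to 3 in wt, a ratio of 5.56 (2.28 to 16.3).

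Of the 12 tested ligand genes 4 rose and 6 fell (33.3% and 50.0%), against 28.5% and 29.3% of all tested genes. These counts include Wnt10a, Wnt10b and Wnt7a on the condition of their filter. Wnt2b was at 136, 149.8 and 194 normalised counts in control against 514, 512 and 529 in wt (log2 fold change -1.70, SE 0.15, adjusted p = 6.53e-08), and Wnt5b, Wnt11 and Wnt5a had log2 fold changes of -1.04, -1.0 and -0.99. Wnt7b fell by 0.73 on the log2 scale. Wnt7a had 2, 3 and 2 reads in control, and the ratio of wt to control was 3.60 (1.54 to 9.76).

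Frizzled and Ror receptors moved by up to 0.53 on the log2 scale in either direction, apart from Fzd10, which fell by 1.37 (SE 0.32). Lef1 fell (log2 fold change -0.53, SE 0.18, adjusted p = 0.021), and Axin2 at 0.02 (SE 0.09), Tcf7 at 0.11 (SE 0.13) and Znrf3 at -0.09 (SE 0.08) did not pass. Without wt 1 the adjusted p was 0.141 for Lef1 and 0.104 for Rnf43, and without control 1 it was 0.085 and 0.12. For Rnf43 it was also 0.0699 without wt 3 and 0.0619 without control 2. Without control 3 it was 0.103 for Fzd1 and 0.0998 for Sfrp5, and without wt 3 it was 0.0515 and 0.0601. For Dkk3 it was 0.0522 without control 1.

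Of the 73 other pathway genes tested 20 rose and 28 fell (65.8%, median -0.10). Sostdc1, a secreted inhibitor (2.84, SE 0.42), Cd44, a surface glycoprotein (2.12, SE 0.11), Sp5, a nuclear target of beta-catenin (1.67, SE 0.31), and Jun (1.18, SE 0.09) rose most. Sost, a secreted inhibitor, had 21, 25 and 20 reads in wt and 1, 0 and 1 in control. T, the mesodermal factor brachyury, had 13, 11 and 14 reads in wt and 2, 3 and 8 in control. Sost and T passed the filter through fresh libraries alone. Their values are thus given as a description, and they stand in the counts on that condition. Other large falls were of Cer1 (-2.53, SE 0.29) and Ccnd1, a cyclin (-1.67, SE 0.10).

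Markers of other cells again moved. All 8 erythroid markers fell (18.0 to 48.6 RPKM summed in control against 1469 to 1773 in wt) and 7 of 8 leukocyte markers rose (248 to 289 against 71.6 to 74.1 RPKM). Of 11 tested acinar markers 8 rose and 1 fell (44698 to 60499 against 4721 to 8643 RPKM), and of 12 endocrine markers 6 rose and 1 fell (5307 to 6124 against 1538 to 1839 RPKM). Ctrb1 made up most of the acinar sums, with means of 46921 RPKM in control and 4350 in wt. Of 12 epithelial markers 9 rose, and of 7 mesothelial markers 2 rose and 5 fell (48.1 to 53.5 against 82.3 to 85.2 RPKM). Of 16 mesenchymal markers 5 rose and 7 fell (1782 to 1894 against 1764 to 1779 RPKM). Of 7 muscle markers 2 rose and 4 fell, and of 8 endothelial markers 4 rose and 3 fell. None was at 0 in a whole group, and their part in these differences was not tested.

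JTE explants were compared with control explants to ask what the S1pr2 antagonist changed in culture. The same ligands that stood out in the control explants, Wnt10a, Wnt10b, Wnt6 and Rspo4, had few reads in the JTE as in the wt libraries. This comparison shares the control libraries with the preceding one, so that the levels in the 3 groups are given side by side with nothing drawn from their joint pattern. Lgr5, Dkk2, Rspo1, Rnf43, Tcf7 and Axin2 were also lower with JTE, and Dkk3, Fzd4, Wnt7b and Wnt11 were higher. Of the 46 tested genes 9 rose and 18 fell, or 58.7%, against 52.2% of all tested genes (25.9% rose and 26.2% fell), so that the share of changed genes was near the background. The median was -0.04 over the 46 and 0.0 over all tested genes.

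Wnt10a had 0, 0 and 1 reads in the JTE libraries, against 19, 20 and 24 in control and 1, 1 and 4 in wt. The ratio of control to JTE was 65.2, with an interval of 11.3 to 2617. Wnt10b had 3, 2 and 5 reads against 67, 84 and 72 in control and 1, 2 and 2 in wt, a ratio of control to JTE of 23.1 (12.3 to 48.8). Both genes were tested only because the control libraries were high.

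Wnt6 had 5, 6 and 15 reads in JTE and 50, 38 and 59 in control (log2 fold change -2.54, SE 0.31, adjusted p = 3.33e-06), with JTE 3 the highest of the JTE libraries. Rspo4 was at 9.52, 17.4 and 15.8 normalised counts in JTE and 196, 189 and 181 in control (log2 fold change -3.71, SE 0.23, adjusted p = 1.25e-09). Wnt3, a canonical ligand, had 5, 2 and 2 reads against 7, 11 and 12, a ratio of control to JTE of 3.45 (1.6 to 8.27). As Wnt3 passed the filter in no JTE library, its values are given as a description. Its call was lost without control 3, JTE 2 or JTE 3.

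**Figure D3:**
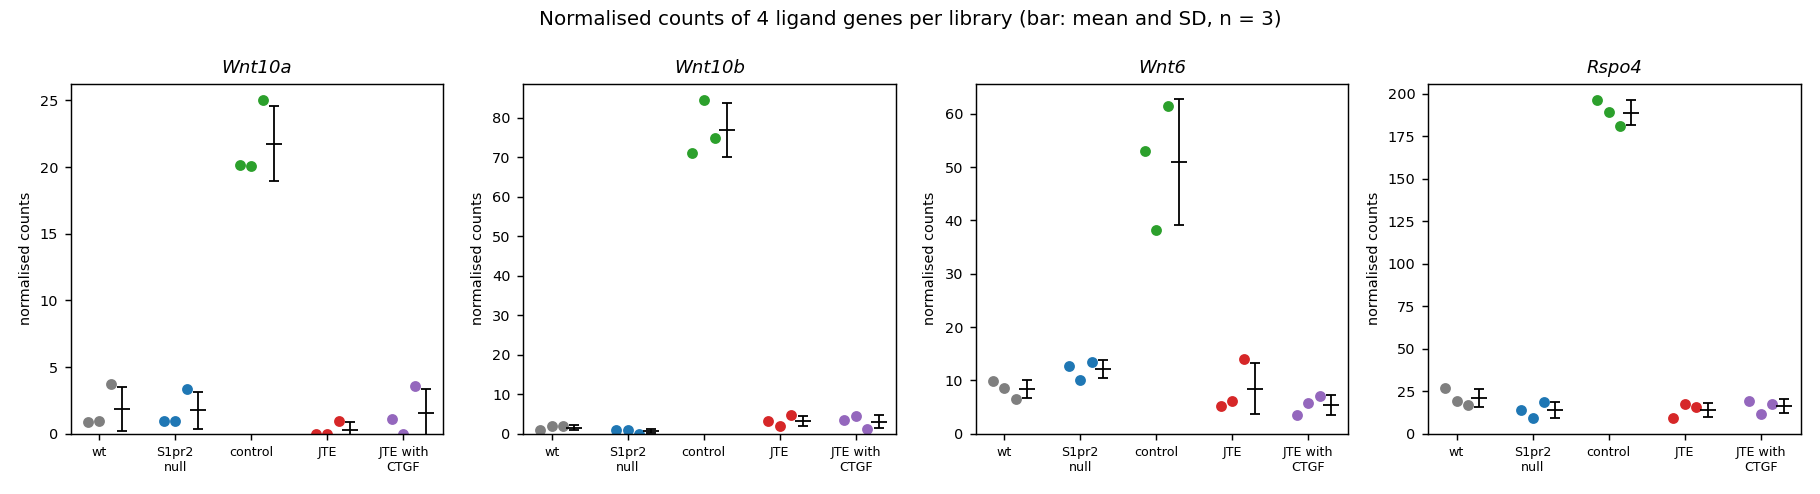
Normalised counts (y axis) of Wnt10a, Wnt10b, Wnt6 and Rspo4 in each library (points) of the 5 groups (x axis), with the mean and SD of 3 libraries as a bar. In each gene the 3 control libraries lie above every other library.

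The other ligands moved less and in both directions. Wnt7b rose to 755, 683 and 627 normalised counts from 423, 376 and 374 (log2 fold change 0.82, SE 0.10, adjusted p = 2.48e-06), and Wnt11 to 59.2, 52.1 and 71.6 from 32.9, 41.2 and 33.3 (0.77, SE 0.19). Wnt4 rose by 0.28 (SE 0.11, adjusted p = 0.047), with overlapping groups, and without JTE 1 its log2 fold change was 0.18 and its adjusted p 0.216. Its adjusted p was between 0.0531 and 0.0563 without any 1 of the 6 fresh libraries and between 0.108 and 0.125 without control 2, control 3 or JTE 2. The call was also lost with DESeq2 (0.0879), RLE scaling (0.0684), upper-quartile scaling (0.0874) and only the libraries compared (0.0614). Wnt5b (69.8 ± 12 against 98.6 ± 9.46) and Wnt9a (100.4 ± 9.45 against 136 ± 11) fell, while Wnt5a, Wnt2b and Wnt7a did not pass.

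Among the receptors Fzd4, known from vessel growth, was at 432, 428 and 427 normalised counts in JTE and 219, 209 and 273 in control (log2 fold change 0.88, SE 0.10, adjusted p = 1.25e-06). Fzd9 rose by 0.67 (SE 0.25) with overlapping groups. Ror2, Ryk and Lrp6 rose with log2 fold changes of 0.31, 0.27 and 0.22. Fzd10 had 11, 2 and 7 reads against 16, 21 and 13, a ratio of control to JTE of 2.59 (1.51 to 4.59). Fzd6 (388 ± 39.6 against 504 ± 2.55 normalised counts) and Fzd2 (1202 ± 54.3 against 1392 ± 118) fell, and the other 5 frizzled genes, Lrp5 and Ror1 did not pass. The call of Fzd9 was lost without control 2, control 3, JTE 1 or JTE 2 (adjusted p 0.0885 to 0.141), and that of Fzd10 without control 2 or JTE 2 (0.0673 and 0.0785).

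The 2 antagonists with the clearest change moved in opposite directions. Dkk2 was at 92.0, 89.9 and 87.4 normalised counts in JTE and 338, 276 and 307 in control (log2 fold change -1.77, SE 0.13, adjusted p = 1.6e-08). Dkk3, a divergent member of the family, was at 395, 397 and 499 against 183, 167 and 156 (log2 fold change 1.35, SE 0.10, adjusted p = 1.53e-08). Sfrp5 fell by 1.57 (SE 0.38) on the log2 scale, and Frzb was at 112 ± 15.0 against 189.5 ± 23.0 and fell. Sfrp1, Sfrp2, Sfrp4 and Notum did not pass, and Sfrp4 had 2, 3 and 23 reads, of which the last was JTE 3.

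Of the readouts Axin2, Tcf7, Lgr5 and Rnf43 fell with JTE, and Notum, Znrf3 and Lef1 did not pass. Over all tested genes 26.2% fell in this comparison. Whether the readouts fell more often than other genes was not tested. Axin2 was at 431, 415 and 481 normalised counts against 759, 677 and 853 in control (log2 fold change -0.79, SE 0.09, adjusted p = 2.71e-06). Tcf7 was at 128, 103 and 131 against 218, 219 and 248 (-0.92, SE 0.14, adjusted p = 3.21e-05). Lgr5 was at 32.8, 25.5 and 18.6 against 105, 73.4 and 95.8 (-1.84, SE 0.29, adjusted p = 5.74e-05).

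Rnf43 was at 349, 337 and 244 normalised counts against 635, 588 and 560.3 (-0.94, SE 0.11, adjusted p = 2.95e-06). No JTE library overlapped a control library in these 4 genes. Notum at -0.48 (SE 0.21, adjusted p = 0.0599) did not pass, but passed without control 1 (0.044) or control 2 (0.0112). Znrf3 (0.03, SE 0.08) and Lef1 (-0.03, SE 0.19) did not pass, and both changed sign when single libraries were left out, Znrf3 also with upper-quartile scaling. Rspo1, an R-spondin, fell to 37.0, 38.8 and 43.7 from 94.5, 88.5 and 119.8 (-1.33, SE 0.24, adjusted p = 0.000156), and Rspo2, Rspo3 and Lgr4 did not pass.

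**Figure D4:**
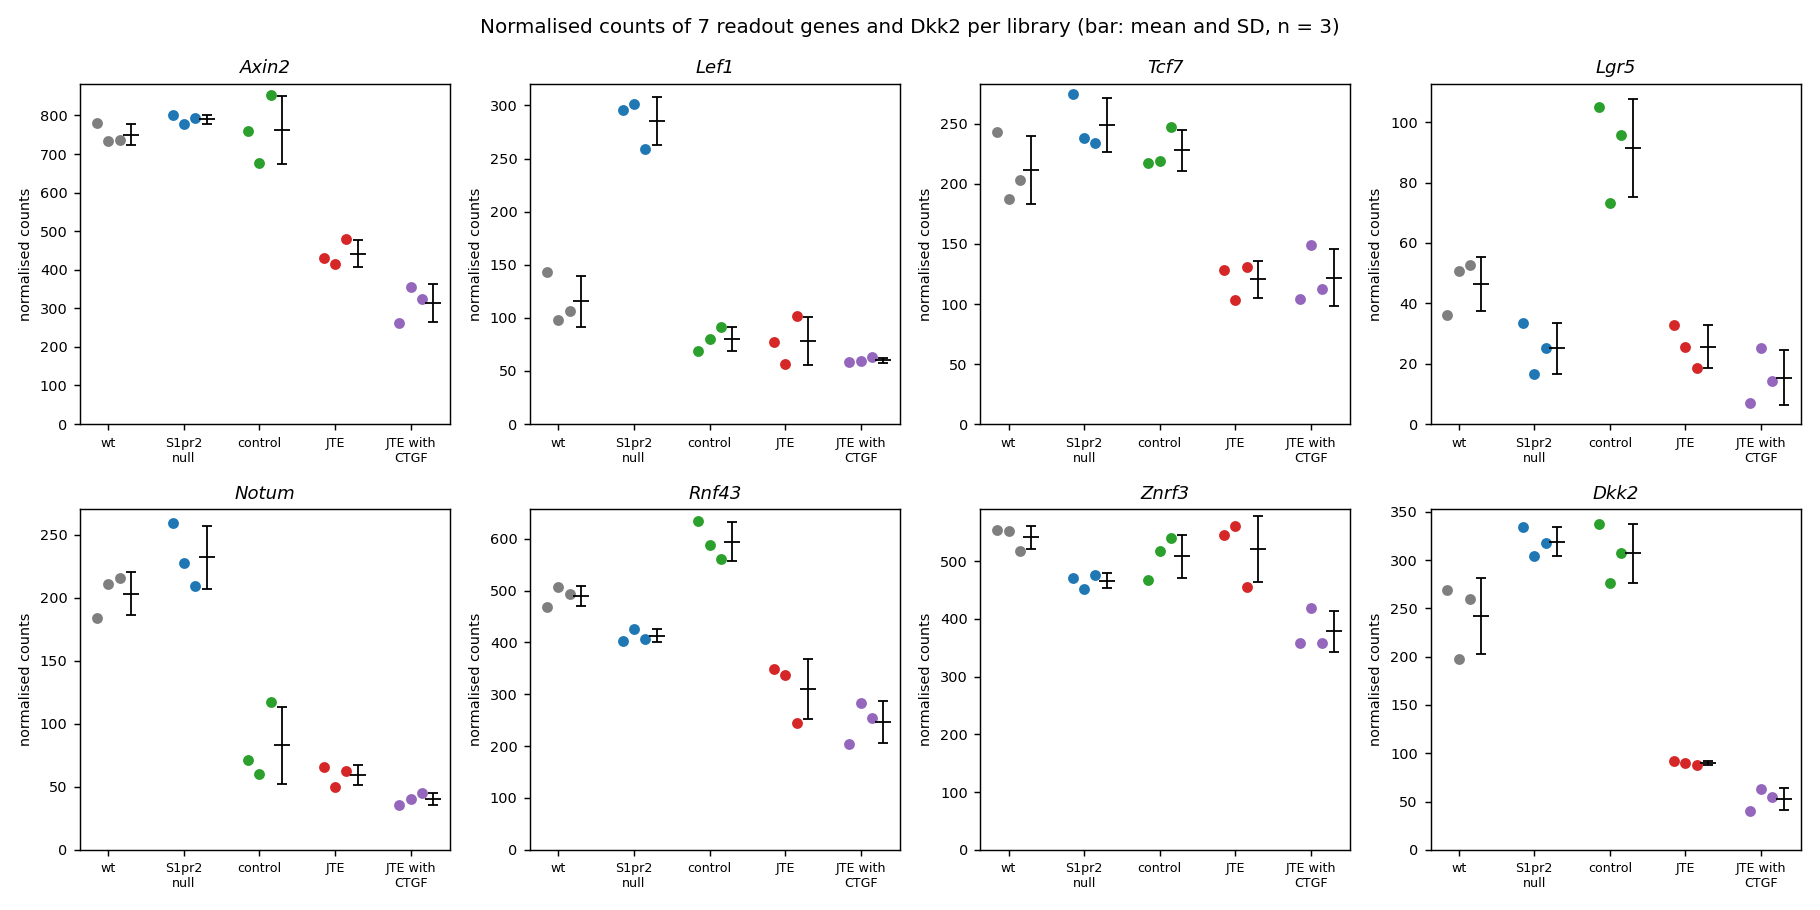
Normalised counts (y axis) of the 7 readouts of beta-catenin signalling and of Dkk2 in each library (points) of the 5 groups (x axis), with the mean and SD of 3 libraries as a bar. Axin2, Tcf7, Lgr5, Rnf43 and Dkk2 are lower in each JTE and JTE with CTGF library than in each control library, and Lef1 is highest in the libraries labelled S1pr2 null.

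Without JTE 3, 9 genes were higher and 20 lower. Of the 73 other pathway genes 18 rose and 24 fell (57.5%, median -0.04), and 15 rose and 27 fell without JTE 3. Dact3, a Dishevelled antagonist (0.90, SE 0.12), Prickle2, a planar polarity protein (0.56, SE 0.07), Fgf9 (0.55, SE 0.18) and the corepressor Tle2 (0.53, SE 0.13) rose most.

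The largest falls among them were of low genes. Sp5 had 3, 6 and 6 reads in JTE and 47, 38 and 36 in control, Cer1 had 2, 3 and 1 against 12, 12 and 8, and T had 0, 0 and 1 against 2, 3 and 8. Sostdc1 had 38, 90 and 19 reads against 225, 250 and 109.

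Several marker lists fell in the same comparison. All 8 leukocyte markers fell (122 to 156 RPKM summed in JTE against 248 to 289 in control), as did 6 of 7 mesothelial markers (24.7 to 25 against 48.1 to 53.5 RPKM), 5 of 7 muscle markers (40.0 to 41.6 against 81.6 to 88.4 RPKM), 6 of 8 endothelial markers (116 to 130 against 146 to 175 RPKM), 8 of 12 epithelial markers (1044 to 1294 against 1759 to 1998 RPKM) and 11 of 12 endocrine markers (1170.5 to 1501 against 5307 to 6124 RPKM). Of 16 mesenchymal markers 3 rose and 5 fell, at 1773 to 2113 against 1782 to 1894 RPKM, and of 11 tested acinar markers 1 rose and 2 fell, at 45299 to 80696 against 44698 to 60499 RPKM. Ctrb1 made up most of these acinar sums, with means of 57301 RPKM in JTE and 46921 in control. No marker of these lists was at 0 in a whole group, and their part in the Wnt genes was not tested.

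JTE with CTGF explants were compared with JTE explants to ask what CTGF changed when S1pr2 was blocked. Of the 46 tested genes 1 rose and 12 fell, or 28.3%, near the 30.4% of all tested genes (13.6% rose and 16.8% fell). The median was -0.21 over the 46 and -0.00223 over all tested genes. The genes that fell were receptors, Wnt2b, Wnt5a, Sfrp1, Dkk2, Axin2 and Znrf3, and neither Wnt6 nor Rspo4 passed the test. Wnt10a had 4 reads in sum with CTGF and 1 without it, and Wnt10b had 8 and 10. These reads were too few to show whether CTGF changed either gene.

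Wnt2b was at 35.4, 73.3 and 42.6 normalised counts with CTGF and at 121, 117 and 159 without it (log2 fold change -1.39, SE 0.22, adjusted p = 0.000142). Fzd4 was at 269.8, 215 and 225 against 432, 428 and 427 (-0.86, SE 0.10, adjusted p = 8.06e-06), and control explants had 219, 209 and 273. Dkk2 was at 40.0, 63.0 and 54.5 against 92.0, 89.9 and 87.4 (-0.77, SE 0.17). In these 3 genes no library of 1 group overlapped the other.

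The coreceptors Lrp6 (-0.45, SE 0.06, adjusted p = 3.1e-05) and Lrp5 (-0.33, SE 0.05) fell, and Ryk rose to 1865, 1715 and 1918 normalised counts from 1407, 1468 and 1595 (0.30, SE 0.06, adjusted p = 0.00104). Axin2 was at 261, 356 and 323 against 431, 415 and 481 (-0.50, SE 0.10, adjusted p = 0.00147), and Znrf3 at 359, 419 and 358 against 546, 562 and 456 (-0.46, SE 0.09, adjusted p = 0.00069). Fzd3, Wnt5a, Fzd5, Sfrp1 and Fzd7 fell by 0.28 to 0.42 on the log2 scale. Lgr5 (-0.72, SE 0.38), Notum (-0.56, SE 0.24), Rnf43 (-0.32, SE 0.12), Lef1 (-0.39, SE 0.21) and Tcf7 (0.01, SE 0.15) did not pass.

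Without JTE 3 the log2 fold change was -0.21 for Wnt5a (adjusted p = 0.23) and -0.08 for Fzd7 (adjusted p = 0.426), and 3 genes were higher and 11 lower. Without JTE with CTGF 3 the adjusted p was 0.117 for Wnt5a, 0.0551 for Fzd5 and 0.141 for Fzd7, and without JTE with CTGF 2 it was 0.0692 for Fzd5 and 0.0884 for Fzd7. Without JTE with CTGF 1 it was 0.0661 for Wnt5a. Rnf43 passed without JTE 3 (0.00478) or JTE with CTGF 2 (0.0271), Lgr5 without JTE with CTGF 2 (0.0378), Lef1 without JTE 2 (0.0382) and Notum without control 3 (0.0202).

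Of the 73 other pathway genes 4 rose and 24 fell (38.4%, median -0.12). Jun (0.32, SE 0.09), Bambi (0.31, SE 0.09), Pygo2 (0.19, SE 0.05) and Dvl1 (0.15, SE 0.06) rose. Dvl3, a Dishevelled protein (-0.86, SE 0.08), Prickle2 (-0.77, SE 0.07), Daam2 (-0.74, SE 0.17) and Apc, a scaffold of beta-catenin breakdown (-0.68, SE 0.06), fell most. The number higher was 2 without JTE 1 and 1 without JTE with CTGF 3. Of 8 erythroid markers 5 rose (138 to 222 against 23.6 to 66.1 RPKM summed), and their part in the Wnt genes was not tested.

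Against the control explants, JTE with CTGF explants had 6 of the 46 tested genes higher and 27 lower, or 71.7%, against 61.1% of all tested genes (28.1% rose and 33.0% fell). The median was -0.37 over the 46 and -0.03 over all tested genes. These libraries are compared with the same control libraries as the JTE explants. Wnt10b had 3, 4 and 1 reads, a ratio of control to JTE with CTGF of 24.9 (12.4 to 58.5), Wnt10a had 1, 0 and 3 (14.1, 5.24 to 53.3) and Wnt6 had 3, 5 and 6 (9.40, 5.42 to 17.6).

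Rspo4 was at 19.4, 11.5 and 17.8 normalised counts (log2 fold change -3.53, SE 0.23, adjusted p = 1.59e-09). Lgr5 (-2.56, SE 0.33), Dkk2 (-2.55, SE 0.15), Wnt2b (-1.66, SE 0.21), Rspo1 (-1.57, SE 0.25), Axin2 (-1.28, SE 0.10), Rnf43 (-1.27, SE 0.12), Notum (-1.04, SE 0.23), Tcf7 (-0.90, SE 0.14) and Znrf3 (-0.43, SE 0.09) fell, and Lef1 (-0.42, SE 0.21, adjusted p = 0.089) did not pass. Dkk3 (1.5, SE 0.10), Fzd9 (0.75, SE 0.25), Wnt7b (0.68, SE 0.10), Wnt11 (0.68, SE 0.19), Ryk (0.57, SE 0.06) and Wnt4 (0.31, SE 0.11) rose. The calls of Fzd9 and Wnt4 were lost without control 2, control 3 or JTE with CTGF 2 (adjusted p 0.0509 to 0.0952), that of Wnt4 also without JTE with CTGF 3 (0.138), and that of Fzd10 without control 1, control 2, JTE with CTGF 1 or JTE with CTGF 3 (0.0597 to 0.114). Of the 73 other pathway genes 13 rose and 38 fell (69.9%), and all 8 leukocyte markers and 6 of 7 mesothelial markers fell.

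A stricter rule, close to that of the study's methods, was applied to the same tests: a gene had to exceed 100 normalised counts on average in either group, to differ by a fold above 1.6 or below 0.6, and to have an adjusted p no higher than 0.1. In S1pr2 null against wt 4 of the 46 genes were higher and 1 lower by it. Protein-coding genes that passed it in each direction made up 1.39% and 1.62% of all 16245 tested genes, coding or not. The shares that follow are of the same kind. In JTE against control 3 were higher and 7 lower, against 3.08% and 5.18%. In JTE with CTGF against control 2 were higher and 7 lower, against 4.39% and 7.39%. In JTE with CTGF against JTE 0 were higher and 2 lower, against 0.443% and 1.3%, and in control against wt 3 were higher and 6 lower, against 7.99% and 4.14%. Most of the calls named above were thus of genes with a smaller change or a lower level than this rule takes.

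The response to JTE in explants and the difference between S1pr2 null and wt share no library, so their difference was tested directly. The antagonist against the null allele, culture against fresh tissue, and dorsal bud against whole organ cannot be told apart in this difference. Of the 46 tested genes 20 differed, or 43.5%, against 42.9% of all tested genes, so that the share was that of the background. In 17 the JTE response was the lower and in 3 the higher, against 21.5% in each direction over all tested genes.

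Wnt4 was at -0.94 in S1pr2 null and 0.28 with JTE, a difference of 1.21 (SE 0.18, adjusted p = 5.31e-05). Its rise with JTE taken alone was lost under several alternatives, as given above. Dkk3 (1.19, SE 0.15) and Fzd4 (0.88, SE 0.14) also had the higher response with JTE. Dkk2 had the opposite pattern, at 0.40 in S1pr2 null and -1.77 with JTE, a difference of -2.17 (SE 0.18, adjusted p = 1.17e-07). Lef1 (-1.33, SE 0.25), Tcf7 (-1.15, SE 0.19), Axin2 (-0.86, SE 0.13) and Rnf43 (-0.70, SE 0.16) each had the lower response with JTE.

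Sfrp1 (-0.88, SE 0.12), Wnt5a (-0.92, SE 0.17) and Wnt5b (-0.94, SE 0.24) had the lower response with JTE as well, as did Rspo4 (-3.12, SE 0.38), Wnt6 (-3.07, SE 0.49) and Rspo1 (-1.26, SE 0.31). Notum (-0.67, SE 0.26, adjusted p = 0.0471) was lost in 11 of the 15 fits that leave out a library, with adjusted p between 0.0517 and 0.217. For Lgr5 (-0.95, SE 0.43) and Znrf3 (0.25, SE 0.12) no difference was shown, although Lgr5 passed without S1pr2 null 2 (0.0453) and Znrf3 without JTE 3 (0.0139). Wnt7b and Wnt11, which rose in both, differed by 0.28 (SE 0.13) and -0.12 (SE 0.24) and did not pass. Without JTE 3, 25 genes differed. Of the 73 other pathway genes 38 differed (52.1%).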

How the data were processed

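The authors aligned single-end reads of poly(A) RNA to mm10 with GSNAP and deposited 1 table of raw read counts per gene, made with featureCounts 1.4.6 from uniquely aligned reads; the strand setting of the counting is not given in the sources used here. Symbols were taken from GENCODE M21. The counts were tested with edgeR 4.0.16 in R 4.3.3 (TMM scaling, filterByExpr, quasi-likelihood F-test on all 15 libraries with 1 mean per group), and p-values were adjusted by Benjamini-Hochberg over 16245 genes. The libraries held 11402804 to 13828737 reads and the biological coefficient of variation was 7.3%. Normalised counts are reads scaled by TMM library size, and RPKM was computed here from them and exon length. Where a compared group had 20 or fewer reads in sum, the ratio of reads with an exact 95% interval for counting error was used in place of the fitted fold. Full statistics are given for at most 12 called genes in each direction and for 7 readouts of beta-catenin, and of the other pathway genes the 4 largest per direction are named. The genes and lists were chosen with earlier results of these data known. The procedure was tested on simulated counts. Alternatives were DESeq2 1.42.0, RLE and upper-quartile scaling, no filter on low counts, fits on only the libraries compared, a replicate block, a stricter rule of size and level and leaving out each library. Those for the other pathway genes were chosen after seeing the data. Dkk4, Wnt3a and Wnt8b have names of the chosen kind, but the count table held no row under these symbols, so they were not analysed. Each library was a pool, so p-values measure the spread between pools.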

Additional observations from a re-analysis of the deposited data

How the results depend on the processing

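For 131 pairs of a named gene and a comparison, 2747 values were recomputed under the alternatives. Of these 2622 kept direction and side of the threshold, 99 kept the direction and lost the call, 17 gained one and 9 changed sign. The changes of sign were in values that did not pass the test. For JTE against control, Lef1 was at 0.0722 without control 3 and 0.159 without JTE 2 (-0.272 to 0.159 on leaving out 1 library), and Znrf3 at -0.00348 with upper-quartile scaling, -0.0237 without control 1, -0.000238 without JTE 1 and -0.0233 without JTE 2 (-0.0237 to 0.122). For JTE with CTGF against JTE, Tcf7 was at -0.0898 without JTE 2 and -0.159 without JTE with CTGF 2 (-0.159 to 0.1145), and for control against wt, Axin2 at -0.0633 without control 3 (-0.0633 to 0.1046). The cause was not tested. Under the stricter rule given above, which adds limits of size and level, the Wnt genes higher and lower were 4 and 1 in S1pr2 null against wt, 3 and 7 in JTE against control, 2 and 7 in JTE with CTGF against control, 0 and 2 in JTE with CTGF against JTE, and 3 and 6 in control against wt, and the other pathway genes 5 and 2, 1 and 5, 2 and 11, 0 and 2, and 6 and 8.

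With only the libraries compared, 5 Wnt genes and 8 other pathway genes were lower in S1pr2 null and 2 other pathway genes were higher with CTGF against JTE. On leaving out 1 library, the Wnt genes higher and lower were 9 to 16 and 1 to 5 in S1pr2 null, 7 to 10 and 15 to 20 in JTE against control, 4 to 8 and 22 to 28 in JTE with CTGF against control, 1 to 3 and 9 to 14 in JTE with CTGF against JTE, 12 to 18 and 16 to 18 in control against wt, and 18 to 25 differed between the responses. The other pathway genes lower in S1pr2 null were 2 to 7 and those higher with CTGF against JTE 1 to 6. Same-numbered replicates did not deviate together in every pair, with correlations of deviations from -0.37 to 0.548. In control and JTE the correlations were 0.0581, 0.357 and 0.548 for replicates 1, 2 and 3. Whether those libraries share a batch was not tested. With a replicate block the Wnt genes higher and lower were 14 and 2, 8 and 18, 7 and 27, 1 and 13, and 17 and 17 in the order above, 22 differed between the responses, and Lgr5 in S1pr2 null (adjusted p = 0.0538) and Wnt4 in JTE against control (adjusted p = 0.0615) lost their calls. Genes with few reads, such as Wnt10a, Wnt3 and Sfrp4, are limited by depth.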

Other observations

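Several marker lists were also measured over the 5 groups. Neural markers summed to 60.1 to 62.5 RPKM in wt and 50.5 to 53.2 in S1pr2 null, where 3 of 9 fell, and gut markers to 40.9 to 45.4 and 53.1 to 64.8 RPKM, where 1 of 6 tested rose and 2 fell. Of 10 trunk and duct markers 6 fell in JTE against control, with a summed level of 545 to 611 RPKM against 1095 to 1255.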
